A study of Homo sapiens with 21 samples.

Results

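Chromosomal DNA is copied from origins that are loaded in G1 phase and fired in S phase, and the 47 genes described here encode the proteins that do both. They were chosen by symbol from the deposited expression table, which lists 16383 genes, with the condition that a gene reach a value of 10 in at least 3 libraries. All 47 met this condition, and 43 of them met it in the 3 libraries of the lowest group alone. The genes fall into 8 roles, namely origin licensing (11 genes), origin firing (8), DNA polymerases and primase (9), the sliding clamp and its loader (5), the single-strand binding protein RPA (3), Okazaki fragment maturation (3), fork protection and checkpoint (5) and replication-coupled histone delivery (3).

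In licensing, the origin recognition complex, CDC6 and CDT1 load the MCM2-7 helicase onto DNA as an inactive ring, and geminin (GMNN) blocks CDT1 once S phase begins. In firing, the CDC7-DBF4 kinase and further factors recruit CDC45 and the GINS complex, which turn the ring into an active helicase. Many of these genes are textbook targets of E2F transcription factors, which the retinoblastoma protein holds inactive until cyclin D with CDK4 or CDK6, and then cyclin E with CDK2, phosphorylate it. Senescent cells have left the cell cycle durably, and low expression of replication genes is a known feature of that state.

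RNA was sequenced after poly(A) capture from IMR90 cells, which are human lung fibroblasts, and 3 libraries were made for each of 7 groups. One group, labelled wild type, was proliferating and untreated. The other 6 groups were made senescent by ionizing irradiation, transfected with 5 nM siRNA on days 4 and 7 and harvested on day 10 after irradiation. Controls received a non-targeting siRNA, number 3 (NT3) or number 4 (NT4), and the others siRNA against CCND1 (cyclin D1), CDK4, CDK6, or CDK4 and CDK6 together (dual knockdown). The same 5 nM is listed for single and dual knockdown, without saying whether it was the total or per siRNA. Because proliferating cells had neither irradiation nor siRNA, those 2 treatments cannot be told apart in comparisons with them. Knockdown lowers a transcript without removing the gene, and no siRNA sequence is given in the labels, so a reagent's off-target effects cannot be told apart from those on its target. Nothing states that replicates came from separate cultures, so p-values measure the spread between libraries, which may be technical.

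Levels are normalised counts, meaning reads per gene divided by 1 size factor per library, with no correction for gene length, so they are compared across libraries within a gene and not between genes. Depth ran from 12892442 to 21822152 reads per library. NT3 replicate 3 was the shallowest and stood apart from its group, with an SD of log2 deviations of 0.344 against 0.193 to 0.256 in the other libraries, and counts without it are given below. CCND1 stood at 4198 to 5149 normalised counts in its knockdown against 25615 to 48813 in the 6 control libraries. CDK4 stood at 105.6 to 110 in CDK4 knockdown and 115 to 123 in dual knockdown against 1157 to 1356 in controls, and CDK6 at 727 to 834 in CDK6 knockdown and 930 to 998 in dual knockdown against 4147 to 5689. All 9 fibroblast markers were expressed in every group. Of the 5 leukocyte markers 1 reached 10 normalised counts in 3 libraries, CD68 at 650 to 1588, and the 5 summed to 651 to 1593, with PTPRC, CD3E, CD79A and LYZ between 0 and 8.90. Of the 4 endothelial markers 2 reached that level, the 4 summed to 7.09 to 48.2, and CDH5 lay between 0 and 3.28. Of the 5 epithelial markers 4 reached it and the 5 summed to 1581 to 2678, with KRT18 at 826 to 1995, EPCAM at 12.2 to 47.8 and CDH1 at 0 to 11.04. Replicate numbers name table columns and carry no order.

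The first comparison asked how the replication genes of irradiated, control-transfected cells differed from those of proliferating cells. All 47 genes were lower in the senescent controls, with a median log2 difference of -2.01, and 41 of them were lower by more than 1 log2 unit. Among the 11579 genes tested, 36.1% were called lower and 32.6% higher (limma on log2 of the value plus 1, adjusted p below 0.05), and their median was -0.03. Of the 11579 genes, 882 were called lower by more than 1 log2 unit. Of all calls 47.4% were higher, and 57.9% when libraries were centred on their median, which moved the all-gene median to 0.09 and left 46 members lower with a median of -1.90. For the median member the control level was 25.02% of the proliferating mean, with a range from 13.1% (PRIM1) to 89.8% (RPA2). In 46 genes all 18 irradiated libraries lay below the 3 proliferating libraries, while RPA2 overlapped. The 6 control and 3 proliferating libraries did not overlap, in either direction, in 54.1% of all genes tested. For the 18 irradiated libraries the share over all genes was not taken. In bulk RNA, fewer cells that express a gene and less RNA per cell cannot be told apart.

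**Figure D1:**
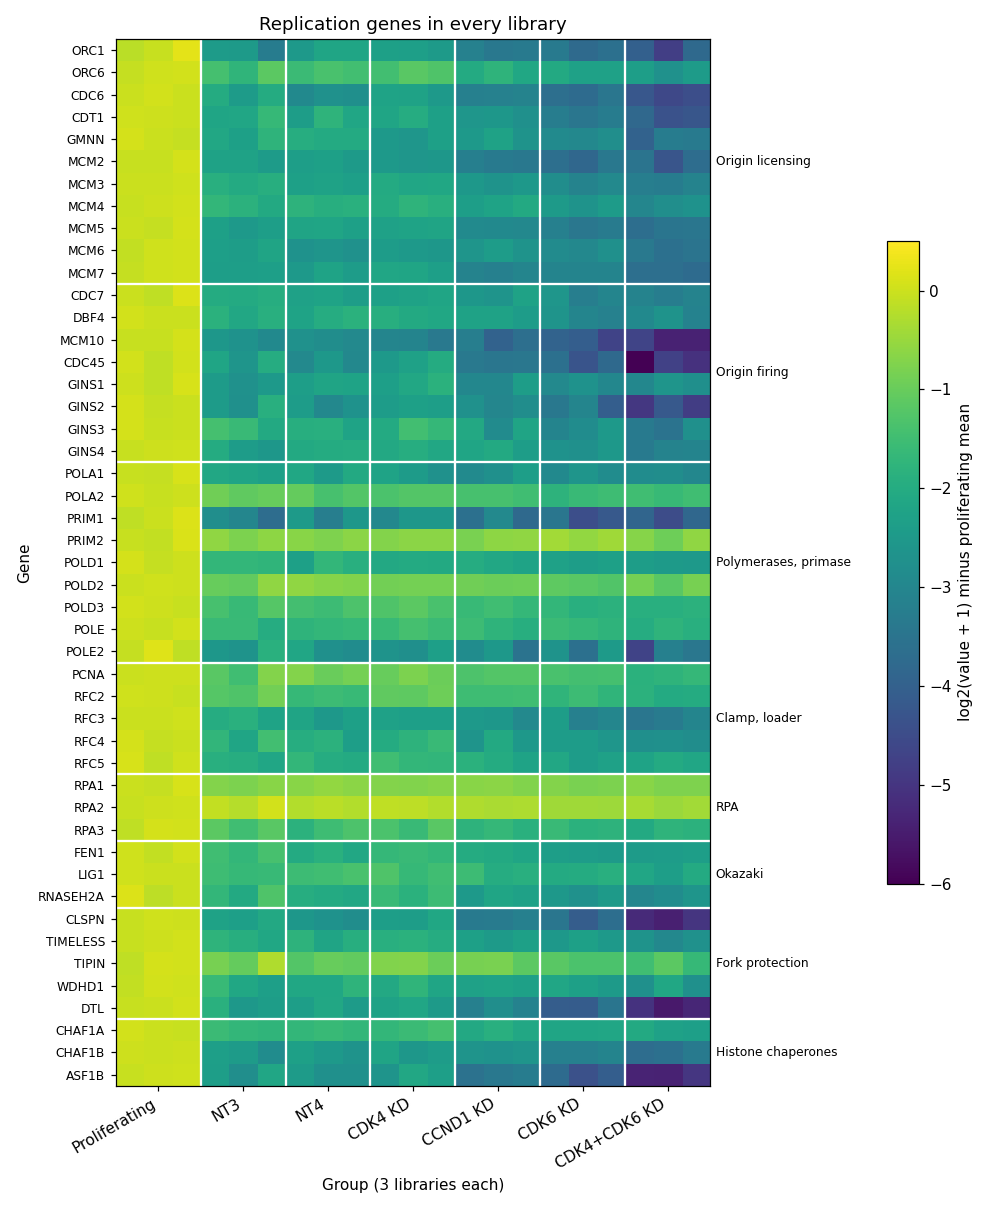
Level of each of the 47 genes (rows, by role) in each of the 21 libraries (columns, by group), as log2 of the normalised count plus 1 minus the proliferating mean of that gene. The proliferating columns are brightest in every row except that of RPA2, which stays close to them and where 1 NT3 library is brighter. The darkest cells are those of CDC45, MCM10, CLSPN, DTL and ASF1B in dual knockdown.

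Promoter sequence was examined because the members fell together. Windows of 250 bases before to 50 bases after the annotated start were taken from RefSeq (GRCh38.p14), and 41 of the 47 genes matched an entry; POLD3, RPA2, MCM4, MCM5, RPA3 and GINS4 did not. A gene was counted if any of its windows held the letters, and 8 members had several starts. Which start these cells used was not tested. The E2F letters TTTCGCGC, TTTGGCGC, TTTCCCGC or TTTGCCGC, searched on both strands, were present in 21 of 41 members (51.2%) and in 6.65% of the 9397 tested genes with an entry. The CHR letters TTTGAA, an element of G2 and mitotic promoters, were present in 2 of 41 members (4.88%) against 14.4% of those genes. CCAAT was present in 25 of 41 (61.0%) against 43.7%. Members with E2F letters had a median log2 difference in senescent controls of -2.19, and members without them -1.93. Both sets ranged widely, from -2.53 to -0.91 with the letters and from -2.95 to -0.66 without. A match describes letters in a window and is not evidence of a bound site.

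The 6 stretches below, each of 170 bases immediately upstream or nearly so of the start, show members with the letters (MCM6, CDT1, GINS2, PCNA) and members without them, MCM10, which fell strongly, and PRIM2, which fell little. They were picked after matches and values were known. Where a gene had several starts, as PCNA and PRIM2 did, 1 window is shown. Capitals mark E2F letters on either strand, and overlapping matches form 1 run. MCM6 lies on the minus strand at chr2:135876444-135876613, CDT1 on the plus strand at chr16:88803619-88803788 and GINS2 on the minus strand at chr16:85688955-85689124. PCNA lies on the minus strand at chr20:5126627-5126796, MCM10 on the plus strand at chr10:13161388-13161557 and PRIM2 on the plus strand at chr6:57314635-57314804.
MCM6: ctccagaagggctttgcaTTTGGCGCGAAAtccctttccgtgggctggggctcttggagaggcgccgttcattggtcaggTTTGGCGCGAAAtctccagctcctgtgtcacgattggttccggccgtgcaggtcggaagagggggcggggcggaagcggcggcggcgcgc
CDT1: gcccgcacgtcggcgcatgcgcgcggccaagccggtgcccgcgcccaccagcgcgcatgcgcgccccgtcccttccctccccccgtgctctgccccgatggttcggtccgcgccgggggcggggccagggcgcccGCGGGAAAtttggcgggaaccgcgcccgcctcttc
GINS2: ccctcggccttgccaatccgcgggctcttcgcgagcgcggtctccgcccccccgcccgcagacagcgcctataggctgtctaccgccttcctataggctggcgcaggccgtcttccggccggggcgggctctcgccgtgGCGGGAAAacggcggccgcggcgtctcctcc
PCNA: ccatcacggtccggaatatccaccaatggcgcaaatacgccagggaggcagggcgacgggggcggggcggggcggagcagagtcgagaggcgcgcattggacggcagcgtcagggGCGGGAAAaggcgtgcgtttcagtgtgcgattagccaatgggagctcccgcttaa
MCM10: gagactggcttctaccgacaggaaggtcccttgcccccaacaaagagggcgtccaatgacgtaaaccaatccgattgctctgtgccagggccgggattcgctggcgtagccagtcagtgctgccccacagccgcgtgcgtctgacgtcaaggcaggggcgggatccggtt
PRIM2: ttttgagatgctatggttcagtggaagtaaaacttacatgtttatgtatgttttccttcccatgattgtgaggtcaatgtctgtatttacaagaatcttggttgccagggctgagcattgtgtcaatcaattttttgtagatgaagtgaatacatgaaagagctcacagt
The MCM6 stretch held 4 matches, in a pair of overlapping runs, and those of CDT1, GINS2 and PCNA held 1 each.

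All 11 licensing genes were lower in senescent controls than in proliferating cells, with log2 differences from -2.50 to -1.45 and a median of -2.31. ORC1, the subunit of the origin recognition complex whose level changes through the cell cycle, fell most in this role. It stood at 265, 291 and 353 normalised counts in proliferating libraries, 55.0, 53.9 and 30.3 in NT3 and 52.3, 65.2 and 65.4 in NT4. Every control library was below every proliferating one, and the log2 difference was -2.50 (SE 0.209, adjusted p = 6.06e-10). ORC6, another subunit of that complex, fell least, from 459, 488 and 499 to 180, 143 and 220 in NT3 and 160, 186 and 174 in NT4, a log2 difference of -1.45 (SE 0.123, adjusted p = 7.2e-10). The MCM2-7 subunits stood at 18.0% (MCM6), 19.5% (MCM7), 19.6% (MCM2), 20.2% (MCM5), 23.1% (MCM3) and 27.6% (MCM4) of their proliferating means. The helicase loaders CDC6 and CDT1 stood at 18.6% and 24.4%, and GMNN, the inhibitor of CDT1, at 24.5%.

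All 8 firing genes fell, by a median of 2.29 on the log2 scale. MCM10, which helps to activate the helicase, stood at 486, 485 and 523 in proliferating libraries, 83.0, 76.6 and 65.5 in NT3 and 75.7, 70.1 and 64.4 in NT4. The groups were far apart, and the log2 difference was -2.77 (SE 0.193, adjusted p = 3.27e-11). GINS3 fell least in this role, from 195, 180 and 182 to 68.5, 61.0 and 43.7 in NT3 and 47.9, 48.7 and 38.5 in NT4, a log2 difference of -1.86 (SE 0.210, adjusted p = 7.62e-08). Between these lay the helicase partner CDC45 at 17.6% of its proliferating mean, GINS2 at 17.7%, GINS1 at 18.8%, GINS4 at 22.4%, the kinase CDC7 at 22.5% and its activator DBF4 at 25.2%.

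The polymerase and primase genes spread most widely, with all 9 lower. PRIM1, the catalytic primase subunit that starts each new strand with an RNA primer, stood at 222, 238 and 270 in proliferating libraries, 34.3, 29.1 and 18.2 in NT3 and 43.4, 25.3 and 40.4 in NT4. Its log2 difference of -2.95 (SE 0.260, adjusted p = 1.48e-09) was the largest fall among the 47 genes. PRIM2, the regulatory primase subunit, stood at 528, 509 and 598 in proliferating libraries, 362, 316 and 357 in NT3 and 343, 322 and 351 in NT4. The libraries of the groups did not overlap, but the log2 difference was only -0.67 (SE 0.081, adjusted p = 2.15e-07). POLA1 and POLA2, the catalytic and the accessory subunit of polymerase alpha, stood at 21.5% and 46.6% of their proliferating means. For polymerase delta, catalytic POLD1 stood at 28.1% and the accessory subunits POLD3 and POLD2 at 37.2% and 58.8%. For polymerase epsilon, catalytic POLE stood at 30.6% and its partner POLE2 at 18.1%.

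PCNA, the sliding clamp that holds polymerases on DNA and also serves in repair, stood at 1979, 2007 and 1988 in proliferating libraries, 895, 705 and 1211 in NT3 and 1214, 1004 and 1101 in NT4. Controls were spread, but none reached the proliferating range, and the log2 difference was -0.99 (SE 0.105, adjusted p = 2.8e-08). RFC3, a subunit of the complex that loads PCNA, fell from 585, 594 and 615 to 151, 162 and 126 in NT3 and 128, 102.2 and 119 in NT4, a log2 difference of -2.19 (SE 0.146, adjusted p = 1.51e-11). The other loader subunits RFC5, RFC4 and RFC2 stood at 25.7%, 27.0% and 39.2% of their proliferating means.

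RPA, which coats single-stranded DNA in replication and repair alike, held the members that differed least. RPA2 stood at 620, 644 and 654 in proliferating libraries, 594, 544 and 669 in NT3 and 538, 562 and 537 in NT4. One NT3 library was above all proliferating ones, and the log2 difference of -0.16 (SE 0.061, adjusted p = 0.0252) lost its call in 8 of 20 alternative analyses. RPA1, the largest subunit, stood at 63.2% of its proliferating mean, a log2 difference of -0.66 (SE 0.050, adjusted p = 1.3e-10). RPA3 fell most in this role, from 259, 294 and 289 to 126, 99.3 and 125 in NT3 and 79.0, 97.3 and 113 in NT4, a log2 difference of -1.40 (SE 0.127, adjusted p = 2.31e-09).

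All 3 Okazaki maturation genes fell. RNASEH2A, the catalytic subunit of the nuclease that cuts RNA joined to DNA, went from 680, 549 and 593 to 186, 144 and 246 in NT3 and 156, 147 and 139 in NT4, a log2 difference of -1.86 (SE 0.136, adjusted p = 7.06e-11). LIG1, the ligase that seals the fragments, went from 814, 787 and 776 to 274, 251 and 258 in NT3 and 272, 283 and 307 in NT4, a log2 difference of -1.53 (SE 0.097, adjusted p = 5.91e-12). In both genes every control library was below every proliferating one. FEN1, the flap nuclease, stood at 29.8% of its proliferating mean.

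Of the 5 fork protection genes, CLSPN (claspin), which carries the ATR signal to CHK1 and is part of the fork, fell most. It stood at 999, 1049 and 1033 in proliferating libraries, 213, 204 and 244 in NT3 and 174, 158 and 145 in NT4, a log2 difference of -2.45 (SE 0.123, adjusted p = 1.25e-13). TIPIN fell least, from 197, 229 and 223 to 121, 105.7 and 180 in NT3 and 90.1, 107.05 and 102.9 in NT4, a log2 difference of -0.91 (SE 0.145, adjusted p = 1.05e-05). One NT3 library came near the proliferating range of TIPIN, and the other 5 control libraries stayed well under it. TIMELESS, the partner of TIPIN, stood at 25.7% of its proliferating mean, DTL, which directs CDT1 to destruction in S phase, at 20.8%, and WDHD1, which links polymerase alpha to the helicase, at 25.02%.

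The histone chaperones also fell. ASF1B, which hands histones H3 and H4 to the assembly machinery, went from 694, 723 and 734 to 138, 103.6 and 160 in NT3 and 132, 107.05 and 105.8 in NT4, a log2 difference of -2.54 (SE 0.158, adjusted p = 4.85e-12). CHAF1A, the large subunit of the assembly factor CAF-1, went from 1004, 949 and 934 to 324, 298 and 286 in NT3 and 294, 309 and 297 in NT4, a log2 difference of -1.67 (SE 0.077, adjusted p = 3.32e-14). CHAF1B, its middle subunit, stood at 17.6% of the proliferating mean.

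**Figure D2:**
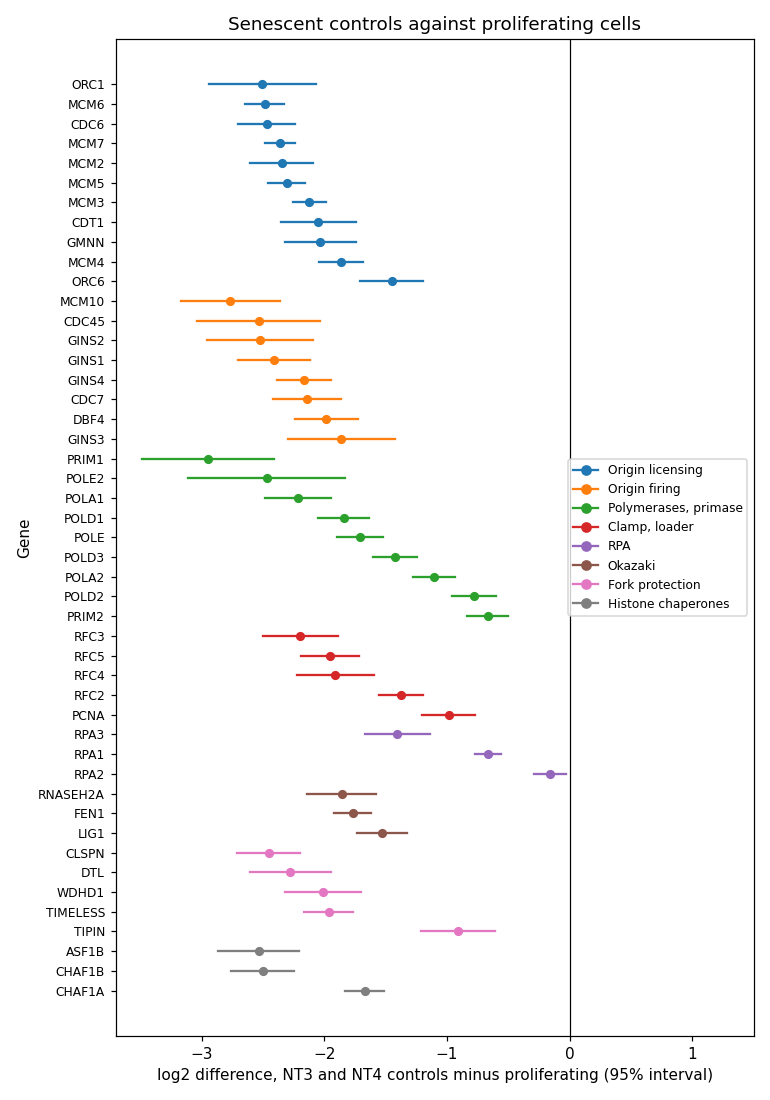
Log2 difference of the mean of NT3 and NT4 from proliferating cells for each of the 47 genes, ordered by size within each role, with 95% intervals as bars. PRIM1 lies furthest left at -2.95 and RPA2 furthest right at -0.16, and no interval reaches 0.

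Whether subunits of 1 complex fell by different amounts was tested on within-library log2 ratios, for 44 pairs of subunits or partners in each of 2 comparisons, chosen after values were seen. In senescent controls against proliferating cells the ratio of PRIM1 to PRIM2 differed by -2.28, with an SD of 0.45 over controls and 0.08 over proliferating libraries. That of TIMELESS to TIPIN differed by -1.06, with the same SDs. Within MCM2-7 the ratio of MCM4 to MCM6 differed most, by 0.62, with SDs of 0.26 over controls and 0.05 over proliferating libraries. An exact permutation test, two-sided and over all 84 splits, cannot give a p below 0.0238 here, and 36 of the 88 tests had an unadjusted p below 0.05. After Benjamini-Hochberg adjustment over the 88 tests 0 passed, and the smallest adjusted p was 0.0676. Tests at the smallest value pass by their own number only where at least 42 of the 88 reach it, and 31 did, so the test could not settle any single pair and the ratios are given as values.

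Single knockdowns were then compared with the mean of NT3 and NT4, which serve as shared controls in each of these comparisons. In CDK6 knockdown 42 of the 47 genes were lower and 1 was higher, with a median log2 difference of -0.63, while 20.8% of all genes tested were lower and 21.1% higher. In CCND1 knockdown 27 were lower and 0 higher, with a median of -0.38, against 14.4% and 16.7% of all genes. In CDK4 knockdown 1 was lower and 1 higher, with a median of 0.07, against 7.55% and 8.46% of all genes. The dual knockdown had 42 lower and 0 higher and a median of -0.97, against 21.5% and 22.5% of all genes. In it 23 members were lower by more than 1 log2 unit, against 611 of the 11579 genes tested. The all-gene median lay between -0.01 and 0 in each of these 4 comparisons. Without NT3 replicate 3 the counts past the threshold were 43 in CDK6, 28 in CCND1, 1 in CDK4 and 43 in dual knockdown. Of all genes tested 46.9%, 35.9%, 23.3% and 51.3% were then called, in the same order. Calls that held in every alternative analysis numbered 34 of 43 in CDK6, 13 of 27 in CCND1, 0 of 2 in CDK4 and 37 of 42 in dual knockdown.

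MKI67, a marker of cycling cells, was lower than controls in CCND1, CDK6 and dual knockdown and higher in CDK4 knockdown, at 459 to 793 normalised counts in controls, 870 to 1076 in CDK4, 417 to 433 in CCND1, 355 to 469 in CDK6 and 86.1 to 111.1 in dual knockdown. The summed level of the 9 fibroblast markers was 450387 to 558223 in controls and 677665 to 861489 in dual knockdown, and that of 4 endothelial markers was 35.03 to 48.2 and 16.02 to 18.8. The part of these in the results was not tested.

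**Figure D3:**
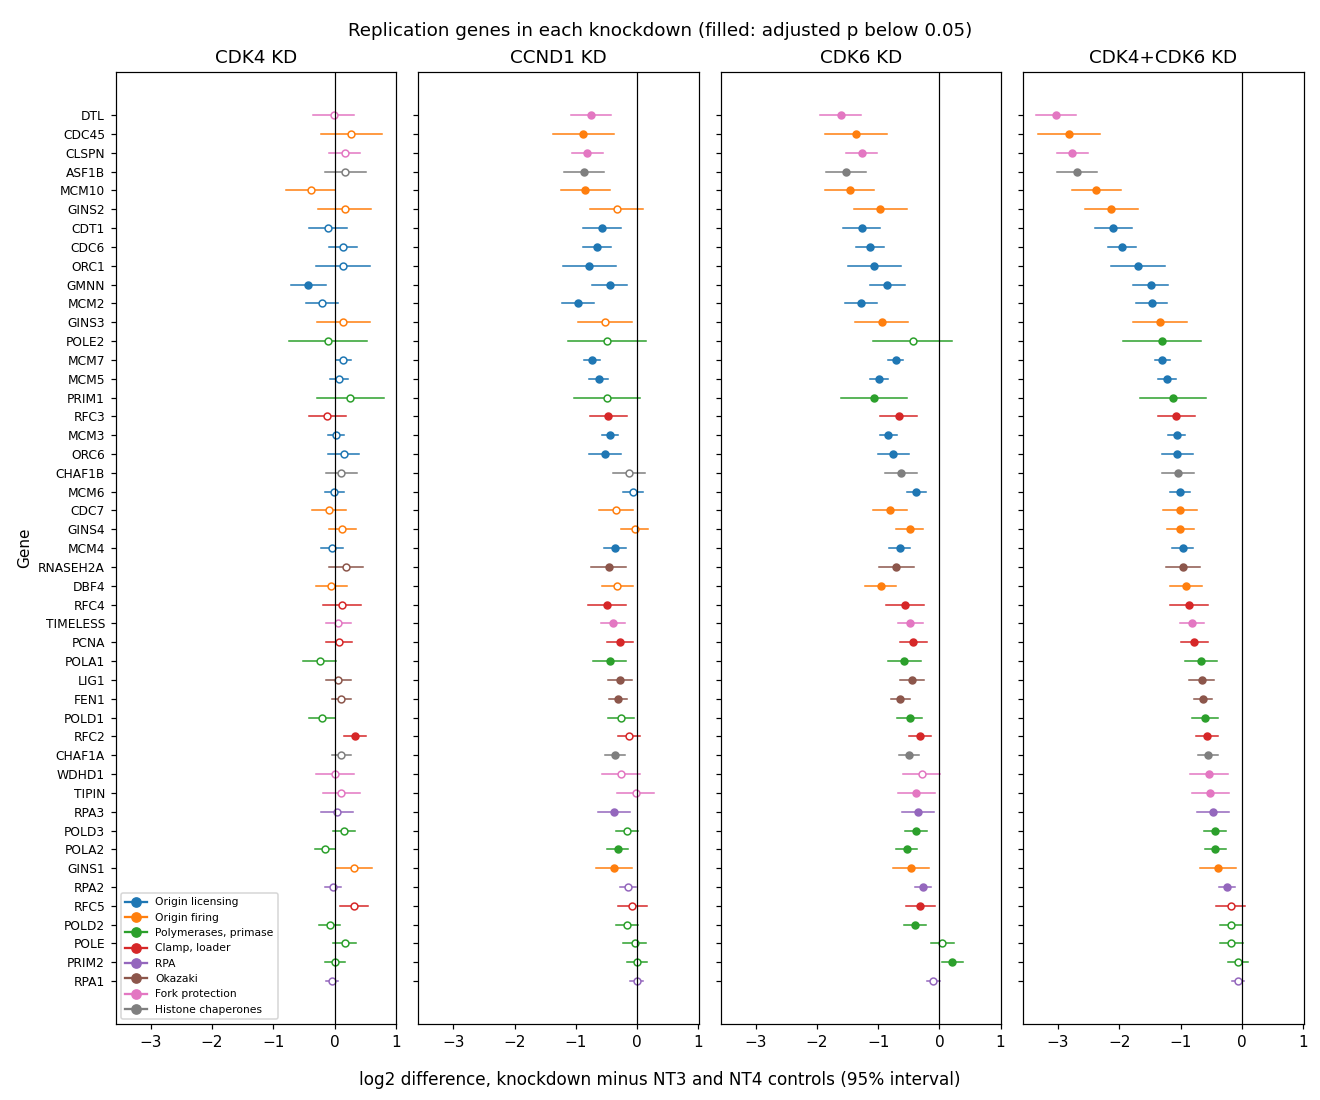
Log2 difference from the mean of NT3 and NT4 for each of the 47 genes in CDK4, CCND1, CDK6 and dual knockdown, with 95% intervals, coloured by role; filled points passed the threshold. Points in the CDK4 panel scatter about 0, those in the CDK6 panel lie mostly left of it, and DTL reaches -3.03 in dual knockdown.

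Licensing genes were lower in both CDK6 and dual knockdown, 11 of 11 in each, with medians of -0.85 and -1.30, and 10 of 11 were lower in CCND1 knockdown with a median of -0.57. Of these calls, those of ORC1 and CDC6 in CCND1 knockdown and MCM6 in CDK6 knockdown were each lost in 1 of the alternative analyses (21 for ORC1, 22 for the others), and that of GMNN in CCND1 knockdown in 2. MCM2, a helicase subunit, showed the largest fall of all members in CCND1 knockdown. It stood at 309, 309 and 275 in NT3, 290, 300 and 268 in NT4, 162, 146 and 139 in CCND1 knockdown, 119, 103.4 and 140 in CDK6 knockdown and 131, 75.3 and 115 in dual knockdown. All libraries of these 3 knockdowns were below all controls, and the log2 difference in CCND1 knockdown was -0.97 (SE 0.124, adjusted p = 5.28e-06). MCM6 was the licensing gene that did not pass in CCND1 knockdown, at 302, 348 and 291 against 365, 351 and 397 in NT3 and 287, 302 and 282 in NT4, a log2 difference of -0.07 with an interval from -0.23 to 0.09. CDC6 and CDT1 stood at 24.8% and 22.8% of their control means in dual knockdown, the lowest of this role, and ORC1 at 30.1%. GMNN was the 1 member called lower in CDK4 knockdown, at 123, 115 and 141 against 161, 140 and 204 in NT3 and 181, 170 and 170 in NT4. Its highest knockdown library exceeded the lowest control, and the log2 difference of -0.43 (SE 0.139, adjusted p = 0.038) lost its call in 12 of 22 alternative analyses, among them without NT3 replicate 3.

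All 8 firing genes were lower in CDK6 and in dual knockdown, with medians of -0.95 and -1.17, and 3 of 8 (MCM10, CDC45 and GINS1) were lower in CCND1 knockdown. In CCND1 knockdown GINS1 lost its call in 16 of 22 alternative analyses and CDC45 with NT4 alone as control. CDC45 stood at 89.3, 66.0 and 101.9 in NT3, 52.3, 69.1 and 51.0 in NT4, 38.3, 36.3 and 37.3 in CCND1 knockdown, 71.0, 82.2 and 101.1 in CDK4 knockdown, 32.6, 19.6 and 28.7 in CDK6 knockdown and 4.41, 14.2 and 11.01 in dual knockdown. CDK4 knockdown overlapped controls, the other 3 knockdowns lay below them, and the dual knockdown lay below all other libraries. The log2 difference was -0.88 (SE 0.240, adjusted p = 0.00831) in CCND1 and -2.82 (SE 0.240, adjusted p = 4.74e-09) in dual knockdown. The lowest of these values rests on 4 reads, so its own counting error is large. MCM10 stood at 52.1, 30.9 and 39.3 in CCND1, 59.7, 58.9 and 47.1 in CDK4, 31.6, 28.9 and 18.2 in CDK6 and 18.8, 10.9 and 11.01 in dual knockdown, and its log2 difference was -1.47 (SE 0.193, adjusted p = 3.27e-06) in CDK6 and -2.37 (SE 0.193, adjusted p = 2.31e-09) in dual knockdown. The GINS subunits spanned a wide range in dual knockdown, where GINS2 stood at 22.0%, GINS3 at 38.9%, GINS4 at 49.2% and GINS1 at 76.4% of the control mean. GINS1 lost its call in dual knockdown in 9 of 22 alternative analyses and in CDK6 knockdown in 2. CDC7 and DBF4 stood at 48.9% and 53.2%.

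Of the polymerase and primase genes 6 of 9 were lower in dual and 6 of 9 in CDK6 knockdown, each with a median of -0.44. In CCND1 knockdown 2 of 9 were lower, POLA1 and POLA2, whose calls were lost in 2 and 1 of 22 alternative analyses. PRIM1 and POLE2 had the largest falls in dual knockdown, to 43.3% and 42.0% of their control means, from libraries with values as low as 9.83 and 7.73. POLE, POLD2 and PRIM2 did not pass there, with intervals from -0.36 to 0.01, -0.36 to 0 and -0.23 to 0.11. PRIM2 was the 1 member called higher in CDK6 knockdown, at 408, 372 and 407 against 362, 316 and 357 in NT3 and 343, 322 and 351 in NT4. The libraries did not overlap, but the difference of 0.21 (SE 0.081, adjusted p = 0.0413) was small and lost its call in 9 of 22 alternative analyses.

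Of the clamp and loader genes, 5 of 5 were lower in CDK6 knockdown, 4 of 5 in dual and 3 of 5 in CCND1 knockdown. In CCND1 knockdown PCNA lost its call in 14 of 22 alternative analyses, RFC4 in 5 and RFC3 in 2. In CDK6 knockdown RFC5 lost it in 8, and PCNA, RFC2 and RFC4 in 1 each, while the 4 dual calls held in all of them. PCNA stood at 779, 726 and 740 in CDK6 and 555, 585 and 623 in dual knockdown, and every dual library was below the other 18. RFC2 was the 1 member called higher in CDK4 knockdown, at 302, 299 and 337 against 277, 261 and 347 in NT3 and 207, 219 and 208 in NT4. The highest of these values was an NT3 library, the 2 control groups stood apart, and the log2 difference of 0.33 (SE 0.086, adjusted p = 0.0115) fell to 0.09 and lost its call with NT3 alone as control. RFC5 did not pass in dual knockdown, at -0.18 with an interval from -0.42 to 0.05. Of the RPA genes, RPA1 passed in none of the 4, and RPA2 stood at 82.6% of its control mean in CDK6 and 84.1% in dual knockdown. RPA3 lost its call in 8 of 22 alternative analyses in CCND1, 10 in CDK6 and 2 in dual knockdown, and RPA2 in 1 in dual knockdown.

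All 3 Okazaki maturation genes were lower in CCND1, CDK6 and dual knockdown, but in CCND1 knockdown LIG1 lost its call in 9 of 22 alternative analyses, RNASEH2A in 3 and FEN1 with NT4 alone as control, where its difference was -0.07. The CDK6 and dual calls held in all of them, and dual values stood at 50.3% (RNASEH2A), 63.4% (FEN1) and 63.5% (LIG1) of the control means. FEN1 was not called lower in dual than in CDK6 knockdown, with 274, 278 and 285 against 288, 278 and 268.

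DTL, in the fork protection group, had the largest fall of all members in both CDK6 and dual knockdown. It stood at 239, 151 and 167 in NT3, 170, 203 and 161 in NT4, 181, 196 and 158 in CDK4, 96.8, 126 and 99.1 in CCND1, 50.9, 49.4 and 77.6 in CDK6 and 25.4, 17.5 and 21.02 in dual knockdown. The last 3 groups lay below the controls with no overlap, in that order. Its log2 difference was -0.02 in CDK4 (interval -0.35 to 0.31), -1.61 (SE 0.159, adjusted p = 6.21e-08) in CDK6 and -3.03 (SE 0.159, adjusted p = 2.96e-12) in dual knockdown. CLSPN stood at 200, 195 and 235 in CDK4, 101.03, 104.6 and 113 in CCND1, 93.6, 59.6 and 81.4 in CDK6 and 26.5, 22.9 and 31.0 in dual knockdown, where the log2 difference was -2.76 (SE 0.123, adjusted p = 3.02e-13). TIMELESS, WDHD1 and TIPIN fell less in dual knockdown, to 56.5%, 69.4% and 68.6% of their control means. TIPIN lost its call in 12 of 22 alternative analyses in CDK6 and 3 in dual knockdown, and WDHD1 in 2 in dual knockdown.

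ASF1B stood at 60.6, 67.2 and 73.6 in CCND1, 115, 165 and 141 in CDK4, 52.9, 33.5 and 42.2 in CDK6 and 16.6, 16.4 and 22.0 in dual knockdown. CDK4 knockdown lay within or slightly above the control range and the other 3 lay below it. The log2 difference was -0.87 (SE 0.158, adjusted p = 0.000281) in CCND1, -1.52 (SE 0.158, adjusted p = 1.38e-07) in CDK6 and -2.69 (SE 0.158, adjusted p = 1.55e-11) in dual knockdown. CHAF1B stood at 47.7% and CHAF1A at 68.5% of the control mean in dual knockdown.

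**Figure D4:**
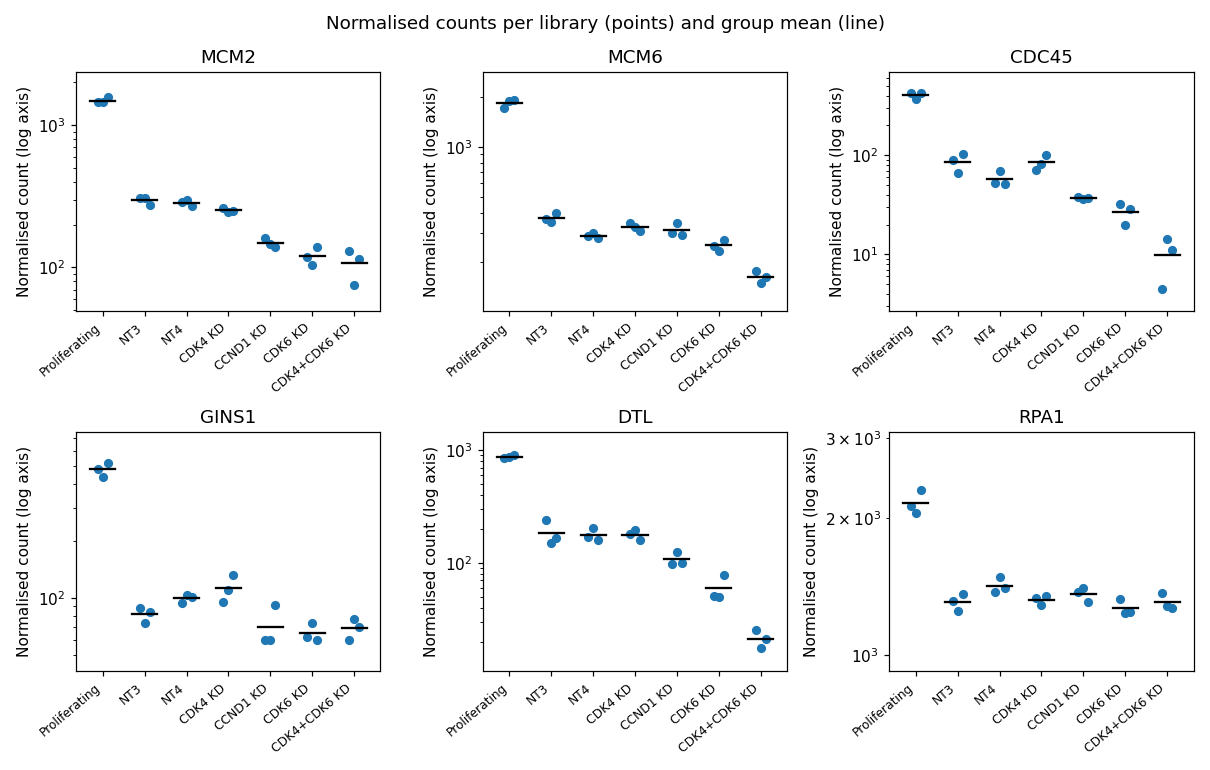
Normalised counts on a log axis in each library (points) with the group mean (line) for MCM2, MCM6, CDC45, GINS1, DTL and RPA1, picked after values were seen to span the range of responses. CDC45 and DTL step down from controls through CCND1 and CDK6 to dual knockdown, while RPA1 stays between 1239 and 1481 in all 18 irradiated libraries.

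Knockdowns were also compared with each other without the controls. CDK6 knockdown was lower than CDK4 knockdown in 40 of 47 genes and higher in 0, against 17.3% lower and 17.5% higher among all genes tested, with a median difference of -0.64. The largest differences were those of ASF1B at -1.70 (SE 0.183, adjusted p = 2.62e-07), CDC45 at -1.63 (SE 0.277, adjusted p = 8.27e-05) and DTL at -1.60 (SE 0.183, adjusted p = 6.21e-07). In each of these 3 genes all CDK6 libraries were below all CDK4 libraries. Dual knockdown was lower than CDK4 knockdown in 44 genes and higher in 0 (14.8% and 15.8% of all genes), with CDC45 at -3.09 (SE 0.277, adjusted p = 1.76e-08), DTL at -3.02 and CLSPN at -2.93. Dual knockdown was lower than CDK6 knockdown in 15 genes and higher in 0 (6.94% and 6.05% of all genes), and these included 7 of 11 licensing genes, 4 of 8 firing genes and 0 of 9 polymerase and primase genes. Fitted differences of the polymerase and primase genes ran from -0.86 to 0.22, and roles were not compared by a test. Among all members CLSPN at -1.50 (SE 0.142, adjusted p = 2.21e-07), CDC45 at -1.46 (SE 0.277, adjusted p = 0.000983) and DTL at -1.42 (SE 0.183, adjusted p = 1.46e-05) differed most.

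CCND1 knockdown was higher than CDK6 knockdown in 12 genes and lower in 0 (6.78% and 5.43% of all genes). DTL at 0.86 (SE 0.183, adjusted p = 0.00283), CDT1 at 0.70 (SE 0.171, adjusted p = 0.0088) and ASF1B at 0.66 (SE 0.183, adjusted p = 0.0209) differed most, and 5 of the 12 calls held in every alternative. Without CDK6 knockdown replicate 2 the count was 7, with 9.45% of all genes tested called. CCND1 knockdown was higher than dual knockdown in 31 genes and lower in 0 (11.2% and 9.12% of all genes), with DTL higher by 2.29, CLSPN by 1.95 and CDC45 by 1.94 log2 units.

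The 2 single differences, of CDK4 and of CDK6 knockdown, were next added on the log2 scale and set against that of dual knockdown, by an interaction term in the same fit. Whether siRNA dose per target differed between single and dual knockdown is not listed, and its part was not tested. In 10 of 47 genes dual knockdown was lower than the sum and in 0 higher, against 3.71% and 2.63% of all genes tested, and the median departure of the members was -0.30. The 10 were CDC45 at -1.73 (SE 0.367, adjusted p = 0.00533), CLSPN at -1.66 (SE 0.188, adjusted p = 5.69e-06), DTL at -1.40 (SE 0.242, adjusted p = 0.000853), ASF1B, GINS2, CDC6, MCM7, GINS4, MCM6 and RFC2. In CLSPN, for example, the single differences were 0.16 for CDK4 and -1.27 for CDK6, and the dual difference was -2.76. Without NT3 replicate 3 the count was 14, while calls over all genes tested rose from 6.35% to 12.4%. For MCM7 the departure was -0.72 with the smallest SE of the 10 (SE 0.091, adjusted p = 2.49e-05), from 320, 323 and 299 in dual, 470, 473 and 469 in CDK6 and 899, 872 and 791 in CDK4 knockdown. No polymerase, RPA or Okazaki maturation gene departed past the threshold, but these roles hold only 9, 3 and 3 genes. Fitted departures of the polymerase and primase genes ran from -0.75 to 0.31, and roles were not compared by a test.

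**Figure D5:**
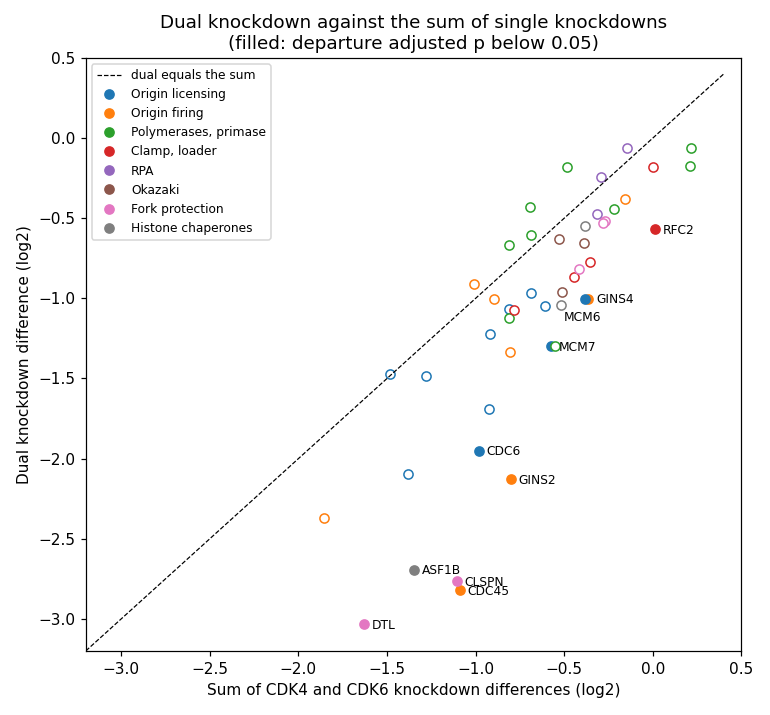
Log2 difference of dual knockdown from controls (vertical) against the sum of the CDK4 and CDK6 knockdown differences (horizontal) for the 47 genes, coloured by role, with a dashed line where the 2 are equal. The 10 filled points, named, passed the interaction test and all lie below the line.

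Proliferating cells had the highest mean in all 47 genes, and the lowest was in dual knockdown for 39 and in CDK6 knockdown for 8 (DBF4, GINS1, POLA2, POLD2, RFC5, RPA1, RPA2 and FEN1). In 21 genes the 3 dual libraries lay below the other 18. For the median member, CDK4 knockdown stood at 24.1% of the proliferating mean, CCND1 knockdown at 19.3%, CDK6 knockdown at 14.4% and dual knockdown at 13.4%, and 17 members were under 10% in dual knockdown. How many of all genes tested meet each of these rules was not counted, so the counts describe the members alone.

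The non-targeting siRNAs differed from each other too. NT4 was lower than NT3 in 6 of 47 genes and higher in 0, against 13.1% and 14.7% of all genes tested. CDC6 stood at 249, 184 and 250 in NT3 and 130, 150 and 146 in NT4, a log2 difference of -0.66 (SE 0.128, adjusted p = 0.000526). FEN1 differed by -0.48 (SE 0.084, adjusted p = 0.000215) and RFC2 by -0.47 (SE 0.099, adjusted p = 0.00131), and the others were CLSPN, MCM6 and MCM3. No library of the 2 groups overlapped in these 6 genes, but they were picked by calls on the same libraries. The share of all genes without overlap was not taken. The member share called lower was close to that of all genes. The count was 10 without NT3 replicate 2 and 7 (5 lower and 2 higher) without NT3 replicate 3, with 35.8% and 24.7% of all genes called.

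A further 35 genes of replication that are not members, such as ORC2 to ORC5, TOPBP1 and the FACT subunits, were tested in the same fit. In senescent controls 31 were lower and 2 higher with a median of -0.99, led by TOP2A at -3.16, FBXO5 at -2.49 and TICRR at -2.48. In CCND1 knockdown 11 were lower and 2 higher, in CDK4 knockdown 2 and 1, in CDK6 knockdown 15 and 1, and in dual knockdown 23 and 4, with medians of -0.06, 0.03, -0.13 and -0.32. Of all genes tested 36.1% were lower and 32.6% higher in senescent controls, and 14.4% and 16.7% in CCND1 knockdown. The shares were 7.55% and 8.46% in CDK4, 20.8% and 21.1% in CDK6 and 21.5% and 22.5% in dual knockdown. From the sum of single knockdowns 2 of the 35 departed downward and 2 upward, against 3.71% and 2.63% of all genes. TOP2A, which untangles DNA in late S phase and mitosis, also departed from the sum of single knockdowns by -1.87 (SE 0.156, adjusted p = 1.05e-07). SKP2, which targets CDT1 and p27 for destruction, departed upward by 0.68 (SE 0.159, adjusted p = 0.0118).

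Some values carry a limit from shared sequence. In GENCODE v44, exons of 16 members overlap those of another protein-coding gene, among them PRIM1, MCM7, DTL, FEN1, CHAF1B and GINS2. In RefSeq, 11 members have a named pseudogene, among them PCNA, PRIM2, RPA2 and ORC1. Whether counting used strand, and how shared reads were assigned, is not given in the sources used here, so levels of these genes are uncertain to that extent.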

How the data were processed

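Poly(A) RNA of 21 libraries in 7 groups was analysed from 1 deposited table. Its values are an expression signal that the file header calls normalised counts, and the authors divided the reads of each gene by 1 size factor per library. In every library 100% of values gave whole reads within 0.1 read. Recomputed DESeq2 size factors were 0.992 to 1.02 times the deposited ones. Trimmomatic 0.38.1, HISAT2 2.2.1, featureCounts 2.0.3, FastQC 0.74, MultiQC and DESeq2 2.11.40.8 are named per the submitters' processing notes, with build hg38; annotation and strand setting are not given in the sources used here. Of the listed genes 19 have no symbol.

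A gene was tested if 3 or more libraries had a value of 10 or more (11579 of 16383). Each value was raised by a pseudocount of 1, put on the log2 scale and modelled in limma 3.58.1 (R 4.3.3), with a trended variance and 1 mean per group, over all 7 groups. Tests were two-sided, with Benjamini-Hochberg adjustment over all tested genes within each of 12 comparisons and a threshold of 0.05. Fold changes on this scale understate the change of low genes. The fit was run on simulated counts that gave every gene the same dispersion and held no outlying library, so it was not checked for these. Libraries held 12892442 to 21822152 reads, and values of a few reads carry large counting error.

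Members and lists were chosen with earlier results of these data known. Values per library are given for the members with the largest and smallest senescence difference in each role and for the 3 largest called differences in each other comparison, plus a few picked after values were seen. The settings varied were the pseudocount (0.1 and 10), the filter (none, or a mean of 100), the scaling (centring on medians, quantile normalization), the controls and groups used (NT3 or NT4 alone, only the compared groups), the tool (edgeR 4.0.16 quasi-likelihood with TMM and DESeq2 1.42.0 on recovered reads) and each library left out. Added after seeing the data were a block by header number, the irradiated libraries alone, the overlap scan and the ratios within complexes, whose exact p is double the smaller one-sided share. A p on the absolute difference was considered after that result was seen and not used. Promoter letters were chosen with the direction of the members known, and their share, first taken over single windows, is given per gene.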

Additional observations from a re-analysis of the deposited data

Results flagged for a closer look

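In 10 genes the dual knockdown difference departed from the added single differences, and they were picked out because the effect of 1 knockdown differed with the other present, by the interaction test. On the log2 scale they were -1.73 for CDC45, -1.66 for CLSPN, -1.40 for DTL, -1.35 for ASF1B, -1.33 for GINS2, -0.97 for CDC6, -0.72 for MCM7, -0.64 for GINS4, -0.63 for MCM6 and -0.58 for RFC2. Of these, 7 held in every alternative analysis. GINS2 lost its call in 3 of 28 alternatives (only the compared groups in the fit, without CDK6 knockdown replicate 2, without dual knockdown replicate 1), GINS4 in 7 and RFC2 in 1 (NT3 alone as control). The dual libraries of CDC45 rest on as few as 4 reads. Their cause was not tested.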

How the results depend on the processing

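No member's difference changed sign in a called value. The count of members past the threshold moved by over 1.5 times in 3 comparisons. For NT4 against NT3 (6) it was 3 with only those groups in the fit, and leaving out 1 library gave 5 to 10, with 10 without NT3 replicate 2. For CDK4 knockdown (2) it was 1 with no filter, 4 with NT3 alone as control and 0 with only the compared groups, and 1 without NT3 replicate 3, NT4 replicate 3 or any 1 CDK4 knockdown library. For CCND1 against CDK6 knockdown (12) leaving out 1 library gave 7 to 9, with 7 without CDK6 knockdown replicate 2. Columns carry no replicate number of the labels, so a block on those numbers was not run. A replicate block by the run of header numbers, over the irradiated libraries, gave 1 for CDK4 knockdown, as did the same libraries with no replicate block, and moved no other count by over 1.5 times. Libraries of the same run correlated at a median of 0.0372 (-0.11 to 0.1) in their deviations from group means, against -0.0166 for different runs, so the runs are not shown to pair libraries. The causes were not tested. Depth limits ORC1, CDC45, PRIM1 and POLE2, each under 10 in 1 dual library.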
